A study of Mus musculus with 8 samples.

Results

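Tph1 (ENSMUSG00000040046) encodes tryptophan hydroxylase 1, the enzyme that starts serotonin synthesis outside the brain, and it was 1 of 27998 genes counted in single epithelial cells of the mouse mammary gland. It was chosen from these data for its uneven level across cell clusters and stages, so its levels are given as a description and were not tested. Its unique molecular identifiers (UMIs, each standing for 1 captured RNA molecule) were summed per mouse and per cluster, using the clusters C1 to C15 of the deposited annotation and sums of at least 20 cells. This gave 35 sums, holding 23099 of the 23183 cells of these clusters. A level is in CPM, the Tph1 UMIs of a sum per 1000000 UMIs of all genes in that sum. The kit counts the 3′ ends of transcripts, so CPM values were not divided by gene length and levels of different genes stand side by side without being ranked.

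Mammary glands came from C57BL/6N females with no transgene or drug named in the labels, 2 mice at each of 4 stages: nulliparous and aged 8 weeks (NP), gestating at day 14.5 (G), lactating at day 6 (L), or 11 days past the natural weaning of their pups (PI). Ages at G, L and PI are not given in the sources used here. Cells that stained for EpCAM and not for CD31, CD45 or Ter119 were sorted, so mast cells, platelets and endothelium were gated against. Each library is 1 mouse, and every spread below is between 2 mice. From vaginal smears the paper classed NP1, NP2 and PI2 as in oestrus and PI1 as in dioestrus. The spread between the PI mice thus includes a difference in cycle stage, and its part in the results was not tested.

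Depth ranged from 13306760 UMIs in PI1 to 34552742 in G1 after quality control, with a median per cell of 3770 in L1 to 9624 in G1. Of 25806 barcodes, 791 occurred in more than 1 library and were removed. C1 to C5 make up the hormone-sensing lineage, C6 to C11 the secretory lineage with the luminal progenitors, C12 to C14 the basal lineage and C15 the Procr+ cells. Most clusters came from 1 stage, so cluster and stage cannot be told apart for them. The lineage name was checked against its markers. In C5 the progesterone receptor gene Pgr stood at 117 ± 4.52 CPM, the oestrogen receptor gene Esr1 at 59.2 ± 14.8 and Krt18 at 3790 ± 67.4 (SD, n = 2), against 22.7 ± 1.52, 2.82 ± 0.835 and 196 ± 17.1 in the basal C14.

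Tryptophan hydroxylase adds a hydroxyl group to tryptophan with tetrahydrobiopterin as cofactor, and aromatic amino acid decarboxylase, the product of Ddc, then makes serotonin. In the mammary gland serotonin is known as a local signal that is induced by prolactin, that slows milk secretion when milk fills the gland, and that raises parathyroid hormone-related protein to draw calcium for milk. Hormone-sensing cells are the luminal cells that carry the receptors for oestrogen, progesterone and prolactin, while secretory cells make milk and basal cells contract to eject it.

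Tph1 lies on the minus strand at chr7:46644641-46672537 (GRCm38, the mm10 build of the files). RefSeq annotates 2 transcription starts. The 250 bases before each are shown because nearly all Tph1 RNA came from the lineage named for its hormone receptors. They were searched for motifs of STAT5, of steroid hormone receptors and of CREB. The CCAAT box, which is not particular to hormone receptors, was searched for as well. Capitals mark TGACG, the CREB half-site, and CCAAT, on either strand (CGTCA and ATTGG when read from the other strand).
Upstream of the outer start, chr7:46672538-46672787, minus strand: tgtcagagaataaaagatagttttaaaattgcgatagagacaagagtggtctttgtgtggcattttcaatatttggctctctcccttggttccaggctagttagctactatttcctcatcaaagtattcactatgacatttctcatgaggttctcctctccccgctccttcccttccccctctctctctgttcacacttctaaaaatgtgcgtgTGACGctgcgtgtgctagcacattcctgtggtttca
Upstream of the inner start, chr7:46667378-46667627, minus strand: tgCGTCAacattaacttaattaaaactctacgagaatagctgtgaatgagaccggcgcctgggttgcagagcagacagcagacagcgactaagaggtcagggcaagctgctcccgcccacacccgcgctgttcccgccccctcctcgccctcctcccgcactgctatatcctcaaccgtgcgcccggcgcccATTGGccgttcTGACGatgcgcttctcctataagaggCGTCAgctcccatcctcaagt
The half-site TGACG occurred 4 times, at -36 in the outer window and at -248, -47 and -21 in the inner one, and CCAAT occurred once, at -58 in the inner window. Of 32851 promoter windows of the same length, 17.8% held TGACG and 33.8% held CCAAT. The STAT5 palindrome TTCNNNGAA (in 7.02% of windows), the receptor element ACANNNTGT shared by progesterone and glucocorticoid receptors (5.84%), the palindromic oestrogen receptor element (0.0639%) and the full cyclic AMP element TGACGTCA (1.55%) had no match in either window. GC content was 43.6% and 58.8%, against a median of 52.4%.

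Tph1 RNA was found almost wholly in hormone-sensing cells, and its level was highest in those of pregnant mice. Of 3722 Tph1 UMIs in C1 to C15, 3581 (96.2%) lay in the 6225 hormone-sensing cells, which were 26.9% of all cells. The other 141 lay in 61 of 16958 cells. The non-epithelial clusters C16 to C19 held 3 Tph1 UMIs in 1516 cells, and the doublet cluster C20 held 0 in 310 cells.

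In C5, the hormone-sensing cells of gestation, Tph1 stood at 373 CPM in G1 (exact 95% Poisson interval 273 to 498, 46 UMIs in 20 cells) and 290 CPM in G2 (228 to 364, 75 UMIs in 41 cells). Both values lay above every other sum of the series. These intervals, like all others here, cover counting error only. In C3, the differentiated hormone-sensing cells of PI mice, the level was 43.2 CPM in PI1 (36.4 to 50.8) and 85.5 in PI2 (80.9 to 90.2). In C4, their counterpart in NP mice, it was 65.4 CPM in NP1 (61.1 to 70.1) and 36.0 in NP2 (33.0 to 39.2). C3 and C4 thus overlapped between mice, and each pair of mice differed beyond counting error. The few C4 cells of PI mice held 12.6 CPM in PI1 and 21.1 in PI2, from 4 and 11 UMIs.

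In each NP and PI mouse the hormone-sensing progenitors held less Tph1 than its main differentiated cluster. In C2, the progenitors of NP mice, the level was 43.7 CPM in NP1 and 15.03 in NP2. In C1, those of PI mice, it was 10.1 CPM in PI1 and 39.2 in PI2. NP1 was above NP2 in both of its clusters and PI2 above PI1 in C1 and C3, so the order of the mice was the same in progenitors and differentiated cells. In C4 of PI mice, with 4 and 11 UMIs, the intervals overlapped (3.45 to 32.4 CPM in PI1, 10.5 to 37.7 in PI2). The PI mice also differed in cycle stage, and its part in their order was not tested.

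**Figure D1:**
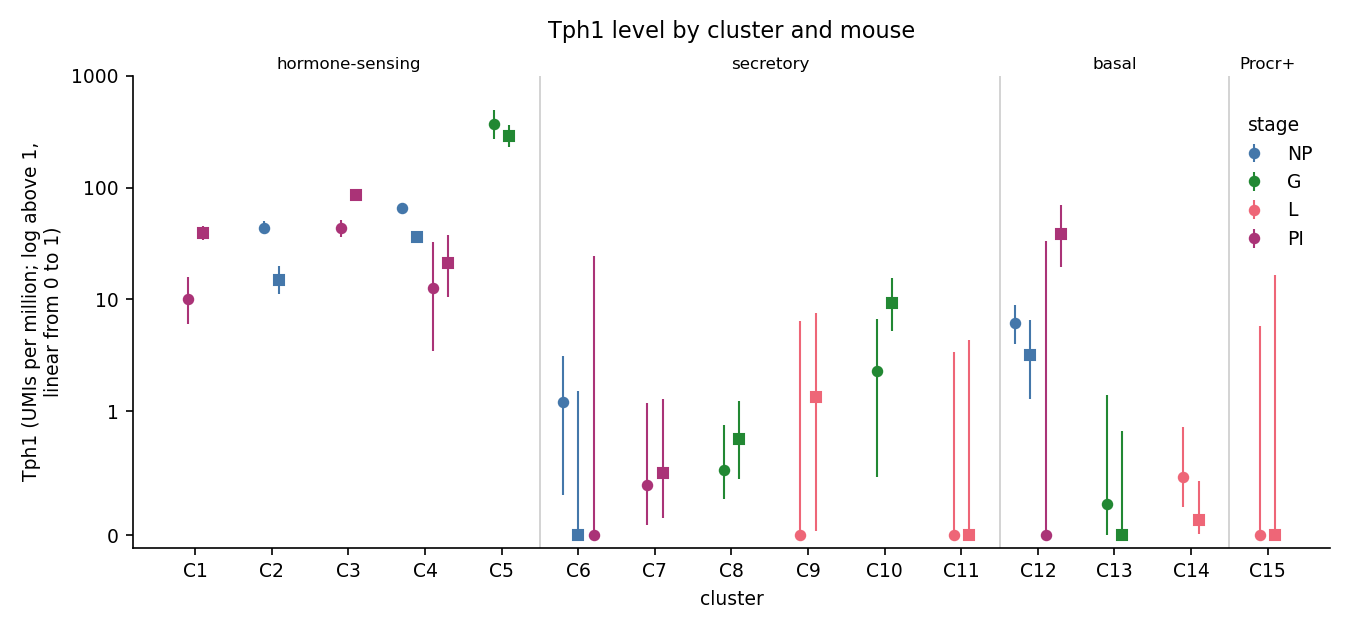
Tph1 level (CPM, log scale above 1 and linear from 0 to 1) for each sum of 20 or more cells, by cluster; circles are mouse 1 and squares mouse 2 of a stage, colours are stages and bars are exact 95% Poisson intervals of the count. C5 stands at 290 and 373, the other hormone-sensing sums lie between 10.1 and 85.5, and most secretory and basal sums lie near or below 1.

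Ordered by mean, the levels were 332 ± 58.7 CPM in C5, 64.3 ± 29.9 in C3, 50.7 ± 20.8 in C4 of NP mice, 29.4 ± 20.3 in C2, 24.6 ± 20.6 in C1 and 16.9 ± 5.95 in C4 of PI mice (SD, n = 2 mice). Only the step from C5 to C3 exceeded the spread between mice. Each later neighbour among these 6 overlapped the one before it between mice. The basal C12 of PI mice, at 0 and 38.8 CPM, overlapped the last 4 and is described with its cells further on. Lower still came C10, the alveolar progenitors of G mice, at 5.83 ± 4.99 CPM and C12 of NP mice at 4.66 ± 2.06, which overlapped each other.

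The share of cells with a Tph1 UMI was also highest in C5. In C5 it was 75.0% in G1 (exact 95% binomial interval 50.9 to 91.3) and 65.9% in G2 (49.4 to 79.9). In C4 it was 24.7% in NP1 and 16.01% in NP2, and in C3 13.3% in PI1 and 18.7% in PI2. Basal cells of the same G mice stand here for a cell type expected to lack the gene. They gave 0.190% in G1 (1 of 525 C13 cells) and 0% in G2 (0 of 594, exact upper limit 0.619%). Their median depths were 6201 and 6060 UMIs per cell, against 6224 and 5514 in C5. When each cell was thinned to 2000 UMIs, C5 kept 60.0% and 39.0%, C4 of NP mice 8.44% and 5.69%, and C3 5.10% and 10.1%, with no hormone-sensing cell left out. The shares of C5 stayed apart from those of C3 and C4 at equal depth.

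Within a cluster the UMIs were not spread evenly over cells. In C4 of NP1, 731 of 971 cells held 0 Tph1 UMIs, 116 held 1, 68 held 2 to 4 and 56 held 5 or more, whereas an even spread by depth would give 8.65 cells with 5 or more. The same count was 28 against 0.524 in C4 of NP2, 8 against 0.0775 in C3 of PI1 and 76 against 2.15 in C3 of PI2. In C5 it was 4 against 1.75 in G1 and 4 against 2.24 in G2, and cells with 0 were 5 against 2.10 and 14 against 7.62. The 5% of cells with most Tph1 held 59.2% to 72.9% of its UMIs in these C3 and C4 sums, against 13.04% (1 of 20 cells) and 30.7% (3 of 41) in C5.

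**Figure D2:**
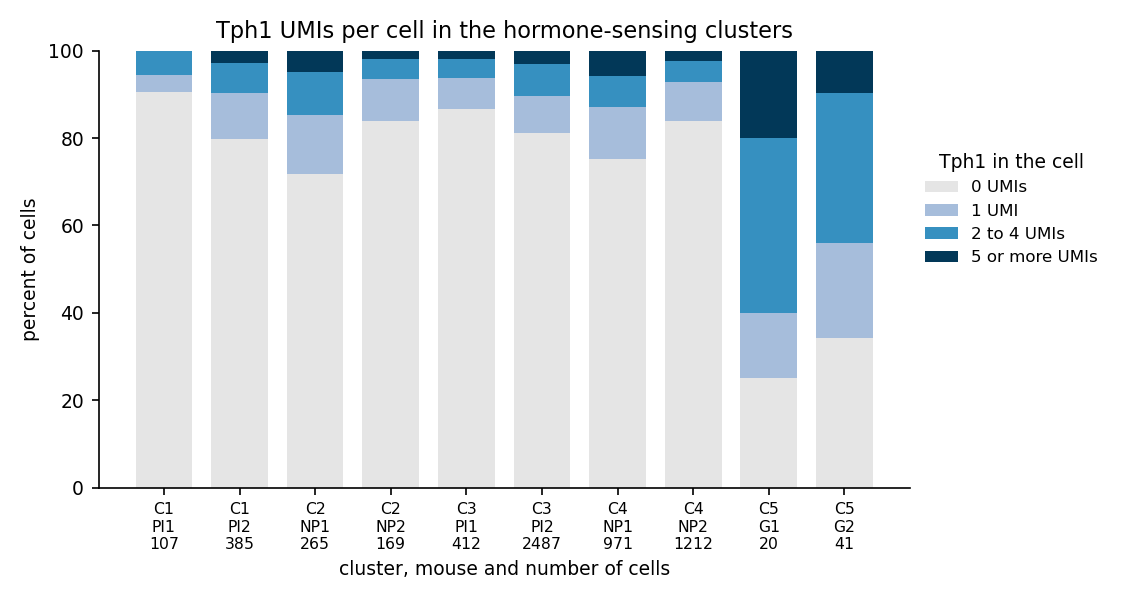
Percent of cells with 0, 1, 2 to 4 and 5 or more Tph1 UMIs in each hormone-sensing cluster and mouse, with the number of cells under each bar. In C5, 15 of 20 and 27 of 41 cells held at least 1 UMI, whereas in the C1 to C4 bars most cells held 0.

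Hormone-sensing cells with much Tph1 carried the receptor of their lineage, and few carried markers of mast, enteroendocrine or megakaryocyte cells, which are known to make or store serotonin elsewhere. Prlr, the prolactin receptor gene, had a UMI in 100% of the 206 hormone-sensing cells with 5 or more Tph1 UMIs and in 99.9% of the 5022 with 0. The 9 mast cell markers had a UMI in 3 of the 206 cells (1.46%) and in 0.378% of the cells with 0, and the 6 enteroendocrine markers in 0 of the 206, which allows a share of up to 1.46%, and in 0.159% of the cells with 0. The 4 megakaryocyte markers were found in 4.37% and 5.02%. Median depth was 9874 UMIs in the 206 cells and 8001 in those with 0. The 4 basal markers had a UMI in 42.2% of the former and 28.5% of the latter, and their part in the result was not tested.

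Tph1 outside the hormone-sensing clusters lay mostly in cells that also carried Prlr. Of the 16897 cells with 0 Tph1 UMIs, 0.657% held 5 or more Prlr UMIs. Among the 41 cells with 1 Tph1 UMI the share was 36.6%, and among the 20 with 2 or more it was 85.0%, with Prlr present in all 20. Median depth rose in the same order, from 5727 to 10937 and 20638 UMIs, and its part in the result was not tested. The highest basal value followed this pattern: C12 of PI2 stood at 38.8 CPM, from 11 UMIs in 4 of 53 cells, and held 0 Tph1 UMIs in the 41 cells with fewer than 5 Prlr UMIs. C12 of PI1 held 0 in 27 cells, and C12 of NP mice stood at 6.11 CPM in NP1 and 3.20 in NP2, and at 1.93 and 1.61 when only cells with fewer than 5 Prlr UMIs were kept. The other receptor genes were sparser than Prlr. In the 20 cells with 2 or more Tph1 UMIs, Esr1 and Pgr together held 0 to 5 UMIs, with 0 in several cells. Cited1, another hormone-sensing marker, held 0 to 79 UMIs in these cells. It had 79 in a C10 cell of L1, 22 in a C8 cell of G2 and 12 in a C14 cell of L1, with 0 in some cells.

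Summed over the secretory lineage, Tph1 was at 1.36 CPM or less in every mouse but L1. Its level was 1.20 CPM in NP1 and 0 in NP2, 0.612 in G1 and 1.36 in G2, 13.5 in L1 and 0.616 in L2, and 0.398 in PI1 and 0.498 in PI2. L1 stood apart, and there 1 cell of C10 with 36609 UMIs and 24 Prlr UMIs held all 23 of the Tph1 UMIs. The ratio of means between L and G, 2.84 on the log2 scale, therefore rests on 1 cell, and without L1 it was -0.68 (counting interval of the 1 UMI of L2 -5.98 to 1.80). Without it, the 328 other secretory cells of L mice held 1 Tph1 UMI, under the 3 counts that a count of 0 allows (0.911 CPM). The ratios of G to NP (0.71 on the log2 scale, from 49 and 4 UMIs) and of PI to NP (-0.42, from 7 and 4) each lay within the spread between mice. Within the lineage C10, the alveolar progenitors of G mice, stood at 2.30 CPM in G1 (exact 95% Poisson interval 0.473 to 6.71) and 9.36 in G2 (5.24 to 15.4). C8 stood at 0.529 in G1 (0.289 to 0.888) and 0.774 in G2 (0.451 to 1.24), so C10 lay above it beyond counting error in G2 only. The basal C13 of the same mice stood at 0.253 and 0. The 3 UMIs of C10 in G1 lay in 1 cell and its 15 in G2 in 3 cells. These 4 cells held 6 to 10 Prlr UMIs and 0 UMIs of Esr1 and Pgr. Cited1 had 0 UMIs in the cell of G1 and 3, 3 and 9 in those of G2. In the sums of C11 and C15, both of L mice, Tph1 was at 0.

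Lactation gave only 3 hormone-sensing cells, so no level of that lineage can be given for it. Of these, 2 C5 cells of L1 held 1 Tph1 UMI each, at 2940 and 3012 UMIs per cell. The third, a cell of L2 assigned to C4, held 104 Tph1 UMIs among 16399, the most of any cell, while the next highest, a C4 cell of NP2, held 38. It held 15 Prlr UMIs.

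Taken as a whole lineage, hormone-sensing cells held 59.8 CPM of Tph1 in NP1 and 32.0 in NP2, 29.8 in PI1 and 72.8 in PI2, and 373 in G1 and 290 in G2. NP and PI mice overlapped, with a log2 ratio of means of PI to NP of 0.16 that ran from -0.62 to 0.68 when 1 mouse was left out. G, whose sums hold C5 and no progenitor cluster, lay apart from both. The ratio of means of G to NP was 7.23-fold, 2.85 on the log2 scale, and from 2.47 to 3.38 without any 1 of the 4 mice.

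Of the 45 other genes of the serotonin list, those that carry the step after Tph1 were barely detected in the same cells. Ddc, the decarboxylase, held 58 UMIs in all of C1 to C15, at 0 CPM in both C5 sums, 0 in C3 and 0.19 in C4 of NP mice, and at most 0.78 in C8. Tph2, the brain form of the hydroxylase, stood at 0 CPM in C1 to C5. Slc6a4, the serotonin transporter, reached 0.26 CPM in C1, and Slc18a2, the vesicle transporter, 0.08 in C4. At the 20 and 41 cells of C5, 3 counts correspond to 24.3 and 11.6 CPM, so a level below these was not detectable there. Th, the tyrosine hydroxylase, was as low, at most at 0.76 CPM in C14.

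Most cofactor enzymes were present in hormone-sensing cells of gestation, but Gch1 was near 0 there. Pts, Spr and Pcbd2, which make and recycle tetrahydrobiopterin, stood at 66.7, 59.2 and 97.1 CPM in C5. Gch1, the first enzyme of the cofactor route, was at 0 in G1 and 3.87 CPM in G2 of C5 (mean 1.94), against 17.5 in C3, 26.5 in C4 of NP mice and 245 in C7, the luminal progenitors of PI mice. Receptor genes lay mainly in other lineages. Htr1d was at 20.7 CPM in C12 of NP mice, 15.4 in C13 and 24.2 in C14, all basal, and at 4.06 in C5, and Htr7 was at 6.21 in the Procr+ C15. Pthlh, the gene of parathyroid hormone-related protein, was likewise basal at 35.8 CPM in C13 and 69.8 in C14, and Maoa, which breaks serotonin down, ranged from 2.22 in C9 to 30.8 in C13.

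**Figure D3:**
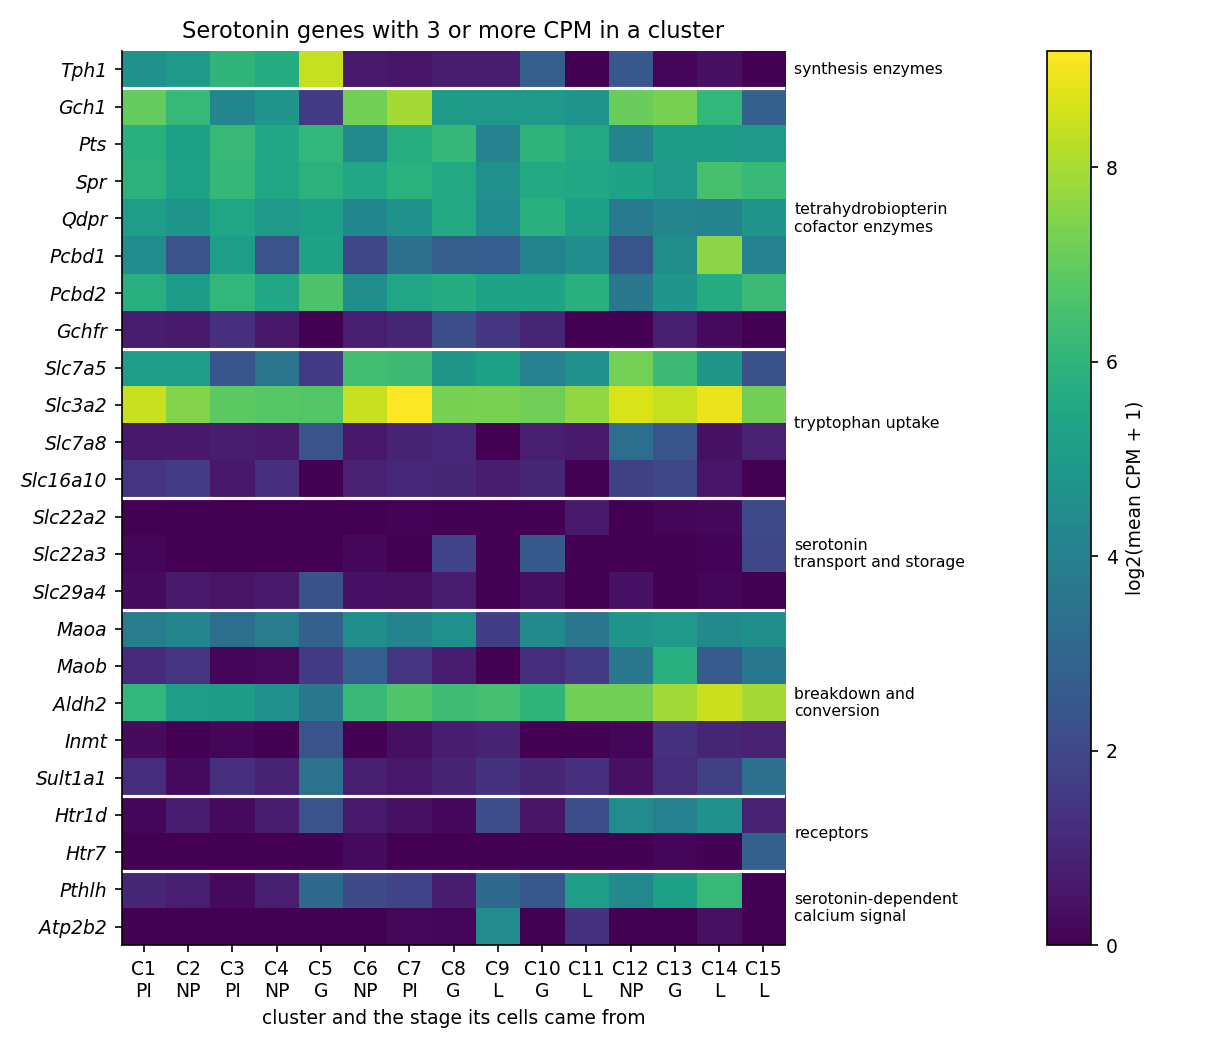
Mean level of 24 serotonin genes, Tph1 included, with 3 or more CPM in a cluster mean, as log2(mean CPM + 1) over the 2 mice of a stage, by cluster and the stage that gave most of its cells; white lines separate roles. In its own row Tph1 is highest in C5 (332 CPM) and next in C3 and C4, while the rows of Htr1d and Pthlh are highest in the basal C14.

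The neighbours of Tph1 on chromosome 7 varied less across clusters. Sergef, 4833 bases away, stood at 3.87 CPM in C5, and over the stage of each cluster that gave most of its cells it ranged from 3.09 to 13.9. Its C5 value is not resolved, since 3 counts there correspond to 24.3 CPM in G1 and 11.6 in G2. Saal1, 13570 bases away, ranged from 2.90 to 16.2 CPM over the same clusters, with 15.7 in C5, and Gm15700 was at 0.

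From NP to G, hormone-sensing cells changed in several genes around Tph1. This comparison was added after the data were seen, and the G side holds only 61 cells. All of these are C5, whereas the NP sums also hold C2 progenitors, 265 of 1249 cells in NP1 and 169 of 1386 in NP2. The 4 luminal progenitor markers, 1 called lower, summed to 316 and 168 CPM in NP and 32.5 and 50.3 in G. The part of this difference in cells was not tested. Of 16 serotonin genes tested, 5 were higher and 1 lower in G by edgeR's quasi-likelihood test (Benjamini-Hochberg adjusted p under 0.05), against 15.1% of all 12227 genes (6.24% higher, 8.84% lower). The median log2 change was 0.24 for the 16 genes and -0.28 for all. The split of calls depended on the scaling, with 763 genes higher and 1081 lower by edgeR and 1076 and 788 by DESeq2, whose median was -0.15, and each change named here exceeds that shift. Pcbd1, a cofactor recycling enzyme, stood at 4.79 and 3.61 CPM in NP1 and NP2 and at 56.8 and 19.4 in G1 and G2, with no overlap. It rose by 2.67 ± 0.61 on the log2 scale (SE, edgeR adjusted p = 0.00497), a call lost without G1. Pcbd2 stood at 46.0 and 37.7 CPM in NP and 97.4 and 96.8 in G (0.96 ± 0.26, edgeR adjusted p = 0.0183), also without overlap, but its call was lost without NP2, G1 or G2. Gch1 was at 41.6 and 32.4 CPM in NP against 0 and 3.87 in G (-4.07 ± 0.85, edgeR adjusted p = 0.00253), lost without G1 or G2. Both G values lay under the 7.86 CPM that 3 counts over the G group correspond to, so the size of the fall of Gch1 is not resolved. Sult1a1, named here after its values were seen, was also called, was under 20 CPM in every mouse and at 0 in G1, and lost its call without G2.

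Genes of the prolactin pathway moved in both directions beside Tph1, with 1 of 8 higher and 2 lower in G. Prlr stood at 2081 and 2102 CPM in NP1 and NP2 and at 811 and 1060 in G1 and G2, and fell by 1.40 on the log2 scale (SE 0.21, edgeR adjusted p = 9.77e-05), a call kept without any 1 mouse. Socs2, a suppressor of cytokine signalling that is a known target of STAT5, stood at 54.6 and 58.7 CPM in NP against 479 and 553 in G. It rose by 2.94 ± 0.19 (edgeR adjusted p = 1.48e-09), again in every such fit. Socs3 went the other way, from 362 and 361 CPM to 89.3 and 46.4 (-2.82 ± 0.35, edgeR adjusted p = 9.92e-06), lost without G2. Groups did not overlap for any of these 3 genes.

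Ido1, which takes tryptophan into the kynurenine route, was 1 of 2 genes of that route tested in the same cells, and was not detected in gestation. It stood at 137 and 86.0 CPM in NP1 and NP2, at 231 and 723 in PI1 and PI2, and at 0 in both G mice. With 3 counts over the G group as the limit, Ido1 was at least 14.2-fold lower in G than in NP, with an edgeR adjusted p of 0.00302 that was lost without G1 or G2. In PI it was 2.06 ± 0.35 higher on the log2 scale than in NP (edgeR adjusted p = 0.000449), a call DESeq2 did not make.

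**Figure D4:**
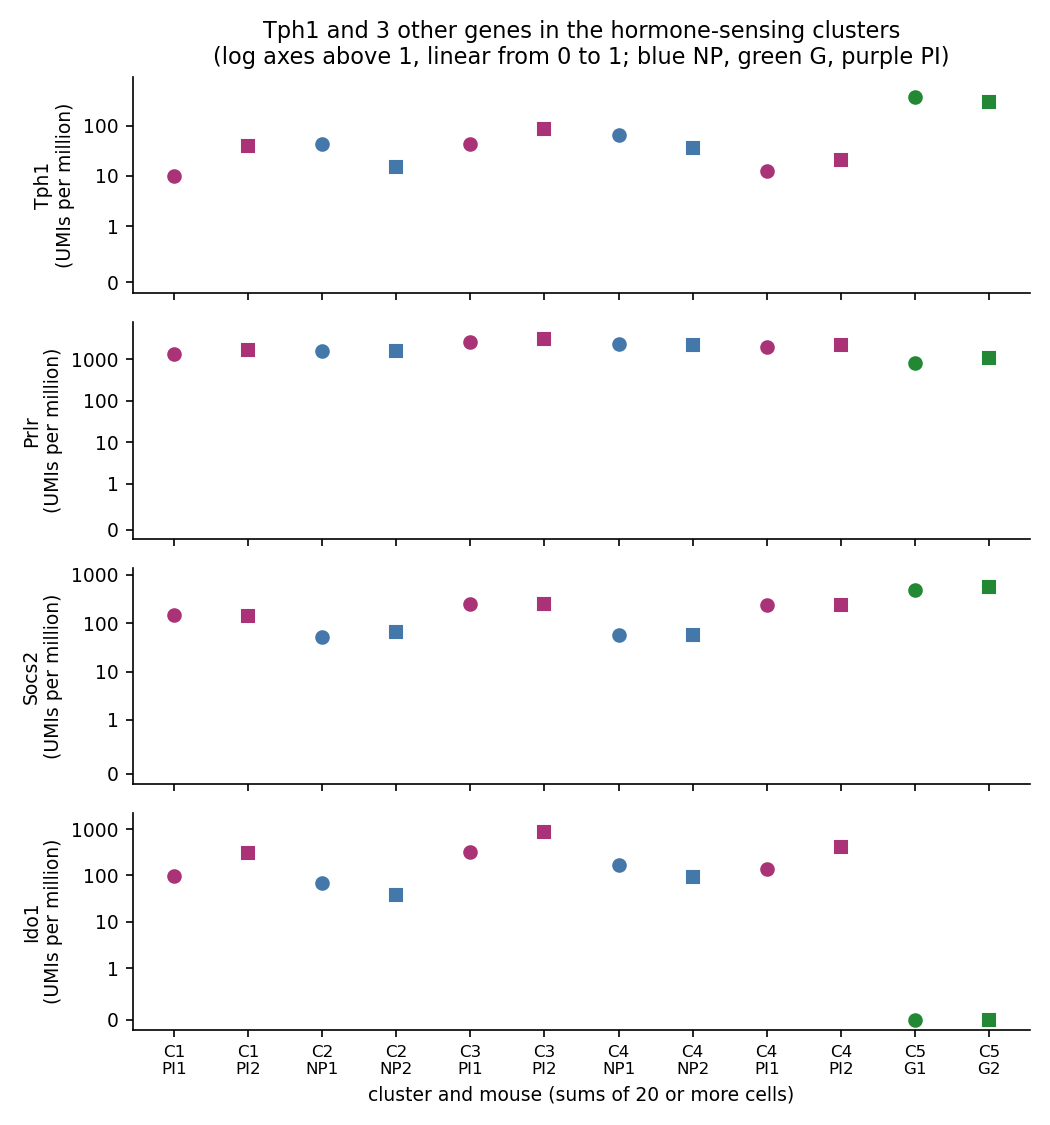
Levels (CPM, log axes above 1, linear from 0 to 1) of Tph1, Prlr, Socs2 and Ido1 in each hormone-sensing sum of 20 or more cells; circles are mouse 1, squares mouse 2, blue NP, green G and purple PI. The 2 C5 sums are highest for Tph1 and Socs2, lowest for Prlr and at 0 for Ido1.

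From NP to PI, where Tph1 itself overlapped between mice, 4 of the 8 cofactor enzymes were called higher in hormone-sensing cells and 0 lower. Of 16 serotonin genes tested, 5 were called, all higher in PI, by edgeR, against 16.4% of 12227 genes (8.68% higher, 7.7% lower), with a median log2 change of 0.44 against -0.04 for all. Pcbd1 stood at 4.79 and 3.61 CPM in NP and 34.8 and 23.2 in PI, and rose by 2.68 ± 0.23 on the log2 scale (edgeR adjusted p = 1.83e-07) in every fit without 1 mouse. Pts, Spr, Pcbd2 and Aldh2 rose by 0.52 to 0.62, and all 4 calls were lost without NP1 and without NP2. Of the prolactin genes, Socs2 went from 54.6 and 58.7 CPM to 214 and 225 (1.88 ± 0.16, edgeR adjusted p = 1.42e-07), and Prlr stood at 2099 and 2714 CPM in PI (0.13 ± 0.19, edgeR adjusted p = 0.706). The milk genes, at 2.06 and 0.888 CPM in NP1 and NP2 for the sum of 4 secretory markers, summed to 243 and 198 in PI and to 722 and 387 in G, and the part of milk RNA in these changes was not tested. The 4 luminal markers, 3 called lower in G, summed to 20998 and 16514 CPM in NP and 9834 and 10578 in G. The 4 basal markers, 3 called lower in PI, summed to 125 and 54.0 CPM in NP and 19.3 and 50.2 in PI. The part of either list was not tested. The comparisons of G and of PI share the NP mice.

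In the secretory lineage, where Tph1 was low, 6 of the 8 cofactor enzymes were called higher in G than in NP and 1 lower. The NP sums are nearly all C6 luminal progenitors, 372 of 374 cells in NP1 and 316 of 318 in NP2. The G sums are mostly C8 differentiated alveolar cells, 1926 of 2017 in G1 and 1818 of 1947 in G2. Stage and cell type thus changed together here, and the part of each was not tested. Of 17 serotonin genes tested 7 were higher and 4 lower in G than in NP by edgeR, against 57.8% of 11738 genes (30.5% higher, 27.3% lower), with a median log2 change of 0.26 against 0.04. Pts stood at 17.4 and 21.9 CPM in NP and 68.8 in both G mice (1.96 ± 0.19, edgeR adjusted p = 3.19e-06). Gch1 fell from 147 and 148 CPM to 26.6 and 35.6 (-2.12 ± 0.17, edgeR adjusted p = 6.08e-07), as it did in hormone-sensing cells. Groups did not overlap for either gene. Over the same mice the 4 milk markers, 3 called higher, summed to 8.71 and 20.2 CPM in NP and 35538 and 21292 in G, and the 4 luminal markers, all 4 called lower, to 23691 and 19733 against 6726 and 8225. The 4 immune markers, 2 called higher, summed to 10.5 and 12.8 CPM against 55.2 and 66.8. Of the 4 basal markers 2 were called higher, with sums of 113 and 60.3 CPM against 125 and 126, and of the 5 stress genes 2 were, with 4768 and 4026 against 4192 and 3006. The 4 luminal progenitor markers, 1 called higher and 1 lower, summed to 2437 and 2190 CPM against 747 and 831. The part of these lists was not tested. From NP to PI, 8 of the 17 were higher and 1 lower, against 24.5% of genes (14.5% higher, 10% lower), with a median of 0.66 against 0.04. Pts was among them, at 46.5 and 58.3 CPM in PI1 and PI2 (1.57 ± 0.20, edgeR adjusted p = 0.000146). The milk markers, 3 of 4 called higher, summed to 1425 and 1754 CPM in PI. The 4 fibroblast markers, 2 called lower, summed to 6.01 and 174 CPM in NP1 and NP2 against 0.265 and 19.7 in PI1 and PI2. The 4 luminal progenitor markers, 2 called higher and 1 lower, summed to 2437 and 2190 CPM in NP against 1505 and 1065 in PI. The part of these 3 lists was not tested.

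From G to L, 7 of 17 serotonin genes were higher and 3 lower in secretory cells by edgeR, against 37.5% of 11738 genes (19.8% higher, 17.7% lower), with a median log2 change of 0.40 against -0.02. Pthlh stood at 0.612 and 1.15 CPM in G1 and G2 and 9.97 and 45.6 in L1 and L2 (5.41 ± 0.59, edgeR adjusted p = 2.36e-05). Atp2b2, the pump that moves calcium into milk, stood at 0.180 and 0 CPM in G and 10.6 and 6.77 in L (6.72 ± 0.80, edgeR adjusted p = 7.28e-05), and 20.7 in C9. Maoa fell from 21.2 and 25.1 CPM to 8.21 and 6.77 (-1.20 ± 0.23, edgeR adjusted p = 0.00171). The 4 basal markers, all 4 called higher, summed to 125 and 126 CPM in these G sums and to 4332 and 2543 in L, and the 5 dissociation stress genes, all 5 called higher, to 4192 and 3006 against 10945 and 6772. The immune markers, 2 of 4 called higher, summed to 280 and 156 CPM in L, and the milk markers, 3 of 4 called higher, to 82577 and 109372. The 4 luminal progenitor markers, 3 called higher, summed to 747 and 831 CPM in G and 1495 and 1601 in L. C11 alveolar progenitors gave 142 of 188 secretory cells in L1 and 89 of 141 in L2, whereas most in G were C8. Pthlh is itself highest in basal cells. The part of these markers and of the make-up of the sums in these changes was not tested.

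In basal cells, 7 of 17 serotonin genes were higher and 7 lower in L than in G by edgeR, against 50.1% of 11870 genes (25.2% higher, 24.9% lower), with a median log2 change of 0.12 against 0.03. Pthlh stood at 33.2 and 38.4 CPM in G and 70.9 and 68.8 in L (1.09 ± 0.25, edgeR adjusted p = 0.00175), a call DESeq2 did not make. Maob, which like Maoa breaks amines down, fell from 58.4 and 52.3 CPM to 4.49 and 6.08 (-3.26 ± 0.20, edgeR adjusted p = 2.19e-09). Pcbd1 rose from 22.4 CPM in both G mice to 198 and 192 (3.25 ± 0.16, edgeR adjusted p = 2.76e-10). The receptor Htr1d stood at 15.1 and 16.4 CPM in G and 28.5 and 20.0 in L (0.75 ± 0.24, edgeR adjusted p = 0.0152), lost without G1, G2 or L1. The stress genes, 5 of 5 called higher, summed to 3941 and 2247 CPM in G against 17612 and 13606 in L. All 4 basal markers were called higher, with sums of 20576 and 15828 CPM against 39182 and 34796. The 4 pericyte markers, 3 called higher, summed to 23.9 and 34.1 CPM against 114 and 55.5, and the 4 endothelial markers, 2 called higher, to 19.4 and 20.2 against 46.7 and 21.5. The part of these lists was not tested.

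Differentiated hormone-sensing cells with a Tph1 UMI were set against those without one in the same mouse, to describe what else differed in them. After thinning every cell to 2000 UMIs, C4 gave 88 cells with and 883 without in NP1, and 68 and 1144 in NP2. C3 gave 27 and 385 in PI1, and 252 and 2235 in PI2. With and without refer to the 2000 UMIs kept of each cell. Before thinning, 240 C4 cells of NP1, 194 of NP2, 55 C3 cells of PI1 and 466 of PI2 held a Tph1 UMI. The group without Tph1 thus includes cells whose Tph1 UMIs were lost in thinning. With the mouse as a term, edgeR called 32 of 6202 genes (0.516%), 12 higher (0.193%) and 20 lower (0.322%) in cells with Tph1, and DESeq2 called 1. Of the 32, 7 were higher in 4 of 4 mice and 14 lower in 4 of 4. This comparison was added after the data were seen, and the genes named from it were chosen after their values were seen.

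Crip1, a small LIM domain protein gene, was the 1 gene called in all 5 other edgeR fits and by DESeq2. With and without Tph1 it stood at 813 and 503 CPM in NP1, 971 and 667 in NP2, 1038 and 542 in PI1, and 639 and 509 in PI2. Cells with Tph1 were higher in each mouse, by 0.50 ± 0.08 on the log2 scale (edgeR adjusted p = 1.43e-05). Pcp4, a calmodulin regulator gene, was higher by 1.25 ± 0.15 (edgeR adjusted p = 4.13e-11), with 1093 against 51.9 CPM in PI1 but 14.7 against 8.74 in NP2. Fxyd2, a regulator of the sodium pump, was higher by 0.48 ± 0.07, and Tppp3, Capsl, Clca3a2 and Tmsb4x were the other 4 that were higher in all 4 mice.

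The genes lower in cells with Tph1 in 4 of 4 mice included Tgm2, a transglutaminase gene (-0.65 ± 0.12, edgeR adjusted p = 5.75e-05), the tight junction gene Cldn4 (-0.30 ± 0.07, edgeR adjusted p = 0.00777), the factor Klf4, Dmbt1, Upk3a, Ly6d, Fgb, Lmo7 and 5 ribosomal protein genes. Each of these lost its call in at least 1 of the 5 other edgeR fits. Hormone receptor genes did not pass the test, in which the group without Tph1 also holds cells that lost their Tph1 UMIs in thinning. Prlr differed by -0.03 (95% interval -0.16 to 0.11), Esr1 by 0.22 (-0.17 to 0.61) and Pgr by 0.35 (0.09 to 0.61, edgeR adjusted p = 0.377). Ido1 differed by -0.24 (-0.46 to -0.01, edgeR adjusted p = 0.654) and Socs2 by 0.07 (-0.21 to 0.35). Socs3 narrowly missed the threshold (-0.43 ± 0.12, edgeR adjusted p = 0.0514). Of the 8 serotonin genes tested, 0 were called by edgeR and by DESeq2, and 2 had an unadjusted p under 0.05.

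**Figure D5:**
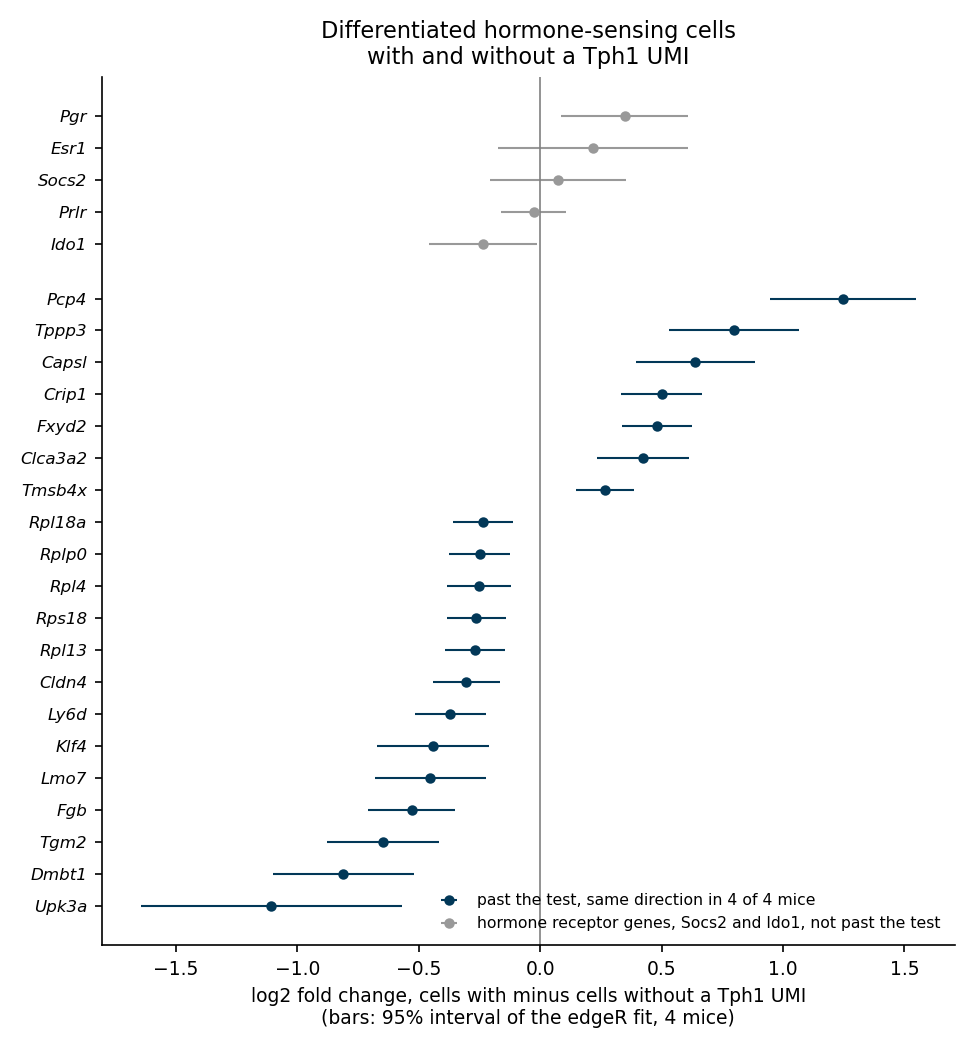
Log2 fold change between C3 and C4 cells with and without a Tph1 UMI (dots) with 95% intervals of the edgeR fit over 4 mice, for 20 of the 21 genes that passed the test and moved the same way in 4 of 4 mice (dark) and for Pgr, Esr1, Socs2, Prlr and Ido1, which did not pass it (grey). Pcp4 lies highest at 1.25 and Upk3a lowest at -1.11, while the interval of Prlr spans 0.

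Across the 35 sums, the genes whose log2(CPM + 1) followed Tph1 most closely, of 8022 genes with a mean of 10 CPM or more, were Hist3h2ba (Pearson r = 0.94), Cdo1 (0.93), Slc35f3 (0.93), Bmp3 (0.93), Guk1 (0.92), Folr2 (0.92), Hba-a1 (0.92), Syt7 (0.90), Cited1 (0.90) and Gpx3 (0.89). These sums share libraries and lineages, and the values are a description. By mean level in C5, C3 and C4 of NP mice, Hist3h2ba stood at 232, 91.5 and 39.7 CPM, as Tph1 did at 332, 64.3 and 50.7. Cited1, a partner of the oestrogen receptor, stood at 1321, 1222 and 613. The globin gene Hba-a1 stood at 521, 26.8 and 21.1, in cells sorted against the red cell marker Ter119. Prlr came at rank 59 (r = 0.80) and Ido1 at rank 408 (0.63), and over the 12 hormone-sensing sums alone both were negative, at -0.43 and -0.65.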

How the data were processed

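RNA of single EpCAM-positive mammary cells of 8 mice was captured with a 3′ UMI kit. The authors made the deposited counts with Cell Ranger, aligning reads to mm10 (STAR is named in the submitters' processing notes; versions are not given in the sources used here), with no normalisation between libraries. The deposited annotation gives each cell's cluster, quality flag, total UMI count and mitochondrial fraction; the fraction was not used beyond the authors' own filter, and the authors set quality thresholds and removed doublet clusters. Cells that passed were used as annotated. The pooled matrix, which repeats the counts, was not used.

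UMIs were summed per mouse and cluster or lineage. Levels carry exact Poisson intervals, shares exact Clopper-Pearson intervals, both at 95%, and a level of 0 allows up to 3 counts. Cells were thinned by hypergeometric draws. Genes were tested in lineage sums by the quasi-likelihood test of edgeR 4.0.16 (R 4.3.3, TMM, filterByExpr with minimum count 10 and minimum total count 15, Benjamini-Hochberg at 0.05). All stages entered each fit, without L in hormone-sensing cells. DESeq2 1.42.0, other filters and normalisation, and fits without 1 mouse were alternatives. Residual degrees of freedom were 3 or 4, and 3 with 271 prior degrees of freedom in the comparison of cells with and without Tph1, which leans on the pooled spread. The tests were tested on simulated data. Other tools were Python 3.11.15, numpy 2.4.6, pandas 2.3.3 and scipy 1.17.1. RefSeq promoters are of GRCm38.p6.

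Tph1 and the gene lists were chosen with earlier results of these data known. Named were Tph1, Tph2, Ddc, Slc6a4, Maoa and Pthlh, list genes past the test with 10 CPM or more in a group (at most 4 per role), receptors with 3 CPM or more in a cluster, the 10 genes most like Tph1, and its neighbours; others are said to be chosen later. From each list the text shows the genes a result turns on, and some genes that enter the counts are not reported here.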

Additional observations from a re-analysis of the deposited data

Results flagged for a closer look

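Among 14 serotonin genes tested for a change from NP to PI that differed between lineages (edgeR with the mouse as a term, Benjamini-Hochberg over all genes), 1 passed. Pts, which makes the tetrahydrobiopterin cofactor, changed less in hormone-sensing than in secretory cells, by -0.95 on the log2 scale (SE 0.20, edgeR adjusted p = 0.00426). In hormone-sensing cells it stood at 44.1 and 39.2 CPM in NP1 and NP2 and 64.3 and 69.3 in PI1 and PI2, and in secretory cells at 17.4 and 21.9 against 46.5 and 58.3. The NP and PI mice did not overlap in either lineage, and the same 4 mice enter the comparisons of the report.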

How the results depend on the processing

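Tph1 levels by cluster and log2 ratios kept their direction under other totals (milk genes left out), and thinning to 2000 UMIs gave a secretory ratio for G to NP alone, of -0.07 from 5 and 1 UMIs (counting interval -2.55 to 5.24), since L held 0 thinned UMIs and PI and NP held 3 or fewer. Thinned to 1000 UMIs, the share of cells with Tph1 was 3.49% in C4 of NP mice and 24.7% in C5, from 7.07% and 49.5% at 2000. Of the 10 genes most like Tph1, 6 stayed by Spearman correlation and 4 over the G and L sums alone. Cells with against without Tph1 gave 92 calls at 4000 UMIs, 21 of them among the 32, and 1 by DESeq2.

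Without 1 mouse, the Tph1 log2 ratio ran from -0.29 to 1.18 (secretory, G to NP), -0.68 to 3.78 (L to G, lowest without L1), -1.42 to -0.27 (PI to NP), -0.62 to 0.68 (hormone-sensing, PI to NP) and 2.47 to 3.38 (G to NP). The secretory ratios to NP have no value without NP1, since NP2 held 0 UMIs. Genes called ran from 5181 to 5779 (secretory, G and NP), 2810 to 3508 (L and G, lowest without L1), 1449 to 2084 (PI and NP, lowest without NP1), 838 to 2361 (hormone-sensing, PI and NP, lowest without NP2), 4079 to 5389 (basal), 410 to 1755 (hormone-sensing, G and NP, lowest without G2) and 10 to 56 (cells with and without Tph1). Serotonin genes called ran, in the same order, from 9 to 11, 5 to 9, 5 to 7, 1 to 8, 11 to 16 and 1 to 4. A lone mouse was assumed to vary like the other groups. The cause of these moves was not tested.

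Replicate numbers did not pair the mice (15 correlations from -0.08 to 0.08). With the replicate block, genes called were 6671, 4259, 2734, 2349, 5904 and 2060, and serotonin genes 12, 10, 9, 6, 14 and 7, all within 1.5 times. In all, 70 of 76 other values and 51 of 70 without 1 mouse moved by less than the spread or by under 1.5 times. Lactation gave too few hormone-sensing cells, and the 61 of gestation limit low genes.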
